A study of Saccharomyces cerevisiae with 24 samples.

Results

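Snf1 is the yeast AMP-activated protein kinase, which cells need to use carbon sources other than glucose. It works as a complex of a catalytic subunit (Snf1), an activating subunit (Snf4) and one of 3 β-subunits (Sip1, Sip2 or Gal83), which tie the complex together and steer where in the cell it acts. A strain that has lost both other β-subunit genes shows what the kinase can do with the one that is left. Here the strain with SIP1 as its only β-subunit gene (genotype sip2Δ gal83Δ) was set against the strain with GAL83 as its only one (genotype sip1Δ sip2Δ). Members were chosen by sample title, which gave 3 arrays of each strain, 6 of the 24 arrays of the series.

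All 24 arrays are Affymetrix yeast arrays of total RNA from Saccharomyces cerevisiae, for 8 strains with 3 biological replicates each. Cultures were aerobic and glucose-limited, in 1 L bioreactors fed 10 g/L glucose at 30 °C and pH 5.0. The dilution rate was 0.1 per h, and biomass was taken at steady state. In such cultures glucose is scarce, a condition in which Snf1 is known to be active. The strain with SIP2 alone (sip1Δ gal83Δ), the strain with no β-subunit gene (sip1Δ sip2Δ gal83Δ) and the wild-type reference strain, 3 arrays each, serve as further points of comparison. Besides the β-subunit genotype, the labels give no difference between the strains. They do not say how many clones of a strain were grown, and the background of the wild type is not named. Levels below are the deposited log2 intensities of a gene's probe set, and differences are log2 values of the SIP1-alone strain minus the other strain, so that 1 unit is a 2-fold change. Each difference carries the standard error of one limma model of the 24 arrays (n = 3 per strain). A gene is called where its p, adjusted over 5449 genes by Benjamini-Hochberg, is under 0.05. Levels of different genes cannot be compared on this scale, since each probe set has its own response.

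The deleted genes marked the strains as labelled, with an exception in 1 of the 6 arrays. SIP1 (YDR422C) read 9.76, 10.57 and 10.50 in the SIP1-alone arrays, against 2.03, 2.03 and 2.02 in the GAL83-alone arrays. GAL83 (YER027C) read 2.08, 2.08 and 2.09 in the SIP1-alone arrays, against 11.30, 11.23 and 10.92 in the GAL83-alone arrays. The scale ends near 2, and differences against such values depend on where it ends. SIP2 (YGL208W), deleted in both strains, read 2.03, 2.02 and 2.03 in the SIP1-alone arrays, against 2.02, 2.02 and 6.0 in the GAL83-alone arrays. The array labelled sip1 sip2 replicate 3 therefore holds SIP2 signal that its label does not allow. SIP1 itself was lowest, within the SIP1-alone strain, in replicate 1.

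Another array stood apart. Replicate 1 of the SIP1-alone strain had a mean correlation of 0.988 with the other arrays of its strain, which themselves reached 0.9928 and 0.9929, while every array of the other 7 strains reached at least 0.9954. It was the lowest of the 3 arrays of its strain for 839 of the 1123 genes called lower in that strain (74.7%), against 42.4% of all genes. Likewise it was the highest of the 3 for 372 of the 540 genes called higher (68.9%), against 46.9% of all genes. The 3 arrays of the SIP1-alone strain also had lowest values of 1.66, 1.67 and 1.66, where the other 21 arrays had 1.78 or 1.79. Any difference in how these 3 arrays were prepared cannot be told apart from the genotype. Results are therefore given with all arrays and without these 2 doubted arrays, SIP1-alone replicate 1 and GAL83-alone replicate 3, and a lost call is stated beside the gene.

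With all arrays, 1663 of 5449 genes (30.5%) were called between the strains, 540 higher with SIP1 alone (9.91%) and 1123 lower (20.6%). Most of these differences were small, with a median size of 0.37 among the called genes. For these 2 strains, list counts below with all arrays are to be read against the shares of all genes, 9.91% higher and 20.6% lower. List counts without the 2 doubted arrays are to be read against fewer calls, 324 higher and 772 lower of 5449 genes. A list near the share of its own setting does not stand apart from all genes. Past a difference of 1, 33 genes were higher and 117 lower, and past 2, 7 were higher and 22 lower. The balance of directions depended on scaling. Subtracting each array's median gave 781 higher and 868 lower, and quantile normalization gave 905 higher and 796 lower. In 2184 genes (40.1%) the 3 arrays of one strain all lay beyond those of the other. Without the 2 doubted arrays 1096 genes were called, 324 higher and 772 lower. Of the 1663 genes, 844 were called both ways and in the same direction, 0 in opposite directions, and all 1663 kept their sign. When the spread was taken from these 6 arrays alone, 210 genes were called, 38 higher and 172 lower, and 133 of the 185 called genes named here lost their call. The reference strain, which keeps all 3 genes, had a mean nearer to the GAL83-alone strain for 1079 of the 1123 lower genes and for 464 of the 540 higher genes. The share over all genes was not computed, so these counts do not set the called genes apart from the rest.

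**Figure D1:**
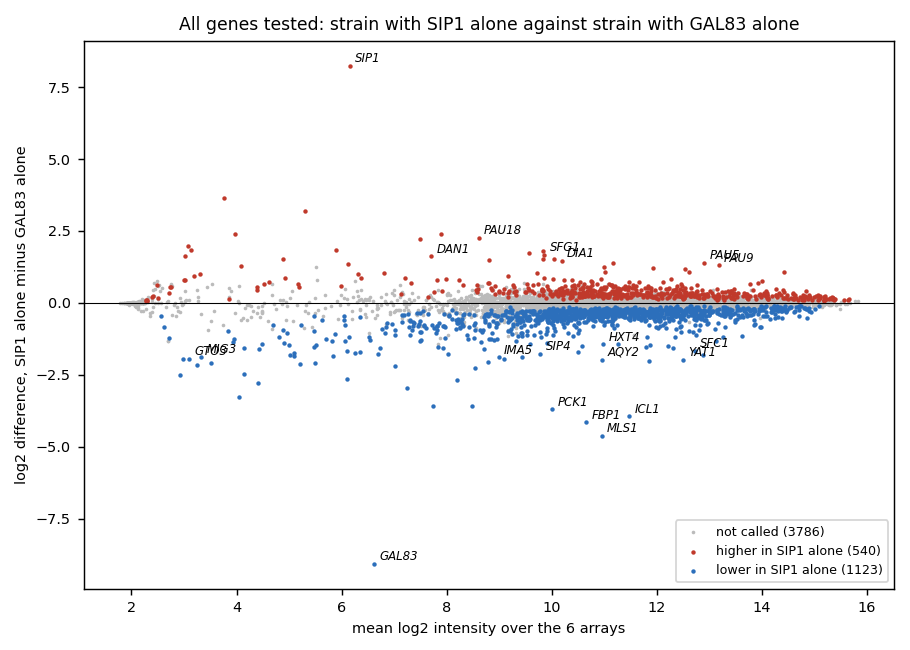
Log2 difference (SIP1 alone minus GAL83 alone, y axis) against the mean log2 intensity over the 6 arrays (x axis) for all 5449 genes. Red points are the 540 genes called higher with SIP1 alone, blue points the 1123 called lower and grey points the rest. Besides the deleted genes, MLS1, FBP1, ICL1 and PCK1 lie lowest, between -4.62 and -3.71.

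Genes that let yeast build sugar from acetate and ethanol held the 4 largest differences after the deleted genes, all lower with SIP1 alone. Gluconeogenesis makes glucose phosphates from small acids, and the glyoxylate cycle feeds it by saving the carbon of acetate. MLS1 (YNL117W), malate synthase of the glyoxylate cycle, read 8.41, 8.19 and 9.32 in the SIP1-alone arrays, against 13.24, 13.44 and 13.11 in the GAL83-alone arrays. The difference was -4.62 ± 0.55 (adjusted p = 2.87e-05), which is 24.6-fold. The strains did not overlap, and the highest SIP1-alone array lay far under the lowest GAL83-alone array. FBP1 (YLR377C), fructose-1,6-bisphosphatase, read 8.93, 8.55 and 8.27 in the SIP1-alone arrays, against 12.70, 12.93 and 12.59 in the GAL83-alone arrays (difference -4.16 ± 0.46, adjusted p = 1.52e-05). ICL1 (YER065C), isocitrate lyase and the partner of Mls1 in the glyoxylate cycle, read 9.33, 9.40 and 9.79 with SIP1 alone, against 13.49, 13.67 and 13.19 with GAL83 alone (difference -3.94 ± 0.45, adjusted p = 1.93e-05). PCK1 (YKR097W), phosphoenolpyruvate carboxykinase, read 7.66, 8.42 and 8.38 in the SIP1-alone arrays, against 12.09, 11.83 and 11.66 in the GAL83-alone arrays (difference -3.71 ± 0.39, adjusted p = 9.06e-06). For all 4 genes the 3 arrays of each strain lay nearer to each other than to the other strain. With SIP1 alone, MLS1 still ranged from 8.19 to 9.32. The 2 doubted arrays did not carry the result. Without them the differences were -4.58 for MLS1, -4.41 for FBP1, -3.99 for ICL1 and -3.56 for PCK1. The reference strain read 13.02, 13.02 and 12.91 for MLS1 and 11.89, 12.10 and 12.33 for FBP1, levels near those of the GAL83-alone strain, a comparison not tested here.

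The carriers and enzymes around these steps were lower too, by less. SFC1, the mitochondrial carrier that exchanges succinate for fumarate, read 12.03, 11.86 and 11.77 with SIP1 alone, against 13.72, 13.58 and 13.37 with GAL83 alone (difference -1.67 ± 0.15, adjusted p = 2.3e-06). MDH2, cytosolic malate dehydrogenase, read 12.78, 13.16 and 13.24 with SIP1 alone, against 14.29, 14.22 and 14.08 with GAL83 alone (difference -1.14 ± 0.14, adjusted p = 5.3e-05). IDP2, the cytosolic isocitrate dehydrogenase that makes NADPH, differed by -0.84 ± 0.11 (adjusted p = 8.1e-05). Neither SFC1 nor MDH2 overlapped between the strains in any array. Of 6 measured gluconeogenesis genes, 4 were lower, 0 higher and 2 not called, with a median difference of -1.41, beside -0.035 over all genes. Of 12 glyoxylate cycle genes, 6 were lower and 0 higher, with a median of -0.24. Both counts were the same without the 2 doubted arrays.

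Carnitine carries acetyl groups between peroxisome, cytosol and mitochondrion, and its acetyltransferases followed. YAT1 read 11.13, 11.80 and 11.58 in the SIP1-alone arrays, against 13.52, 13.52 and 13.44 in the GAL83-alone arrays (difference -1.99 ± 0.18, adjusted p = 2.28e-06). YAT2 read 11.35, 11.47 and 11.55 with SIP1 alone, against 13.00, 13.08 and 12.80 with GAL83 alone (difference -1.50 ± 0.099, adjusted p = 5.45e-08). Neither gene overlapped between the strains. CRC1, the mitochondrial acetyl-carnitine carrier, differed by -0.82 ± 0.13 (adjusted p = 0.000403, or 0.0536 with values raised to the level of the lowest 25% of genes), and CAT2, the peroxisomal and mitochondrial acetyltransferase, by -0.48 ± 0.096 (adjusted p = 0.00167). AGP2, a permease that takes up carnitine, read 8.32, 9.76 and 9.73 with SIP1 alone, against 10.23, 10.22 and 10.40 with GAL83 alone. Its difference of -1.01 (adjusted p = 0.00882) rested on replicate 1, and without the 2 doubted arrays it was -0.48 (adjusted p = 0.0534). In all, 5 of 6 carnitine shuttle genes were lower and 0 higher, with a median of -0.92, and 4 were lower without the 2 doubted arrays, with a median of -0.67.

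Genes for taking up and activating acetate and lactate were mostly lower, though not all were called. ADY2, the main acetate transporter, read 11.92, 12.26 and 11.74 with SIP1 alone, against 14.01, 13.81 and 13.56 with GAL83 alone (difference -1.82 ± 0.39, adjusted p = 0.00273). ACH1, the mitochondrial CoA transferase that handles acetate, read 13.46, 13.79 and 13.39 with SIP1 alone, against 14.28, 14.53 and 14.38 with GAL83 alone (difference -0.85 ± 0.096, adjusted p = 1.74e-05). CYB2, the lactate dehydrogenase of the mitochondrion, differed by -0.74 ± 0.11 (adjusted p = 0.000174). The lactate permease gene JEN1, by contrast, read 14.51, 14.60 and 14.70 with SIP1 alone, against 14.75, 14.59 and 14.62 with GAL83 alone. Its difference was -0.054, with a 95% interval of -0.18 to 0.071 (adjusted p = 0.52). ADH2, the alcohol dehydrogenase that consumes ethanol, read 15.37, 15.43 and 15.46 with SIP1 alone, against 15.52, 15.43 and 15.43 with GAL83 alone (difference -0.036, interval -0.12 to 0.053, adjusted p = 0.553). Both JEN1 and ADH2 had strong signal in every array, and their strains overlapped. ADH2 lay near the highest values of these 6 arrays (15.77 to 15.91), which limits what a difference there could show. ACS1, acetyl-CoA synthetase, was called at -0.29 with all arrays (adjusted p = 0.0388), but its arrays of 14.40, 14.92 and 14.94 with SIP1 alone show that replicate 1 set the difference, and without the 2 doubted arrays it was -0.12 (adjusted p = 0.277). Over this list of 11 genes, which does not include ADH2, 7 were lower and 1 higher, with a median of -0.29. The counts, though not all the genes, were the same without the 2 doubted arrays.

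**Figure D2:**
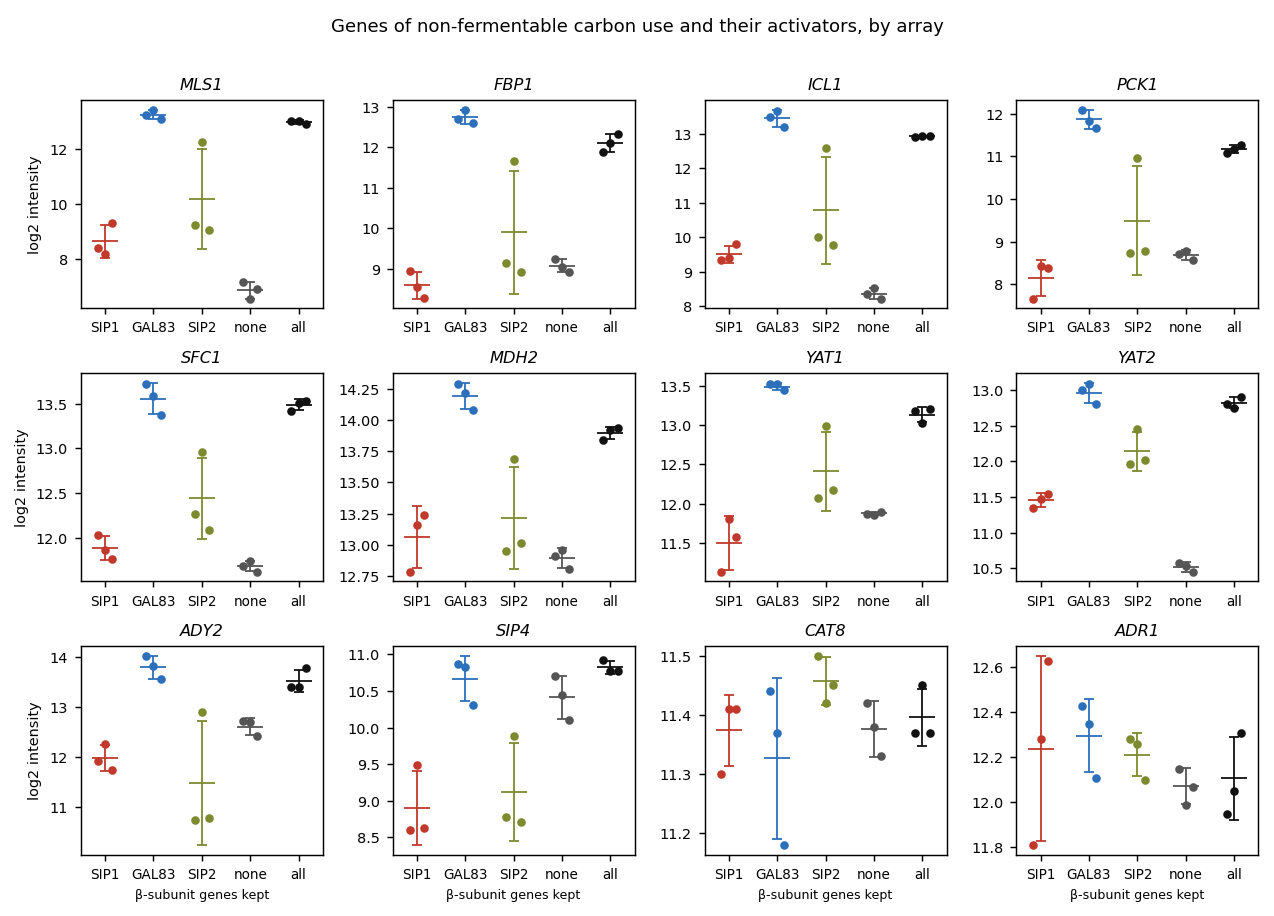
Log2 intensity (y axis) of 12 genes in each array of 5 strains (x axis, by the β-subunit genes kept; none is the triple deletion and all is the reference). Points are arrays, and bars are the strain mean ± SD. MLS1, FBP1, ICL1, PCK1 and YAT1 separate SIP1 alone from GAL83 alone in every array, while CAT8 and ADR1 overlap. One array of the SIP2-alone strain lies near the reference for most of these genes.

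The activators of these genes did not all share the pattern. Cat8 and Sip4 bind the carbon source-responsive elements upstream of gluconeogenic genes, and Snf1 acts on both. SIP4, whose own transcription depends on Cat8, read 8.59, 9.49 and 8.62 with SIP1 alone, against 10.87, 10.83 and 10.31 with GAL83 alone (difference -1.77 ± 0.28, adjusted p = 0.000325). In contrast, CAT8 read 11.30, 11.41 and 11.41 with SIP1 alone, against 11.44, 11.37 and 11.18 with GAL83 alone. Its difference was 0.047, with an interval of -0.072 to 0.17 (adjusted p = 0.561). ADR1, the activator of ADH2 and of peroxisomal genes, differed by -0.057 (interval -0.39 to 0.28, adjusted p = 0.824), and HAP4, the regulated subunit of the respiratory activator, by -0.055 (interval -0.19 to 0.076, adjusted p = 0.533). RDS2, another activator of gluconeogenic genes, differed by -0.49 ± 0.10 (adjusted p = 0.00188). HAP5, a DNA-binding subunit of the Hap complex, differed by -0.76 ± 0.13 (adjusted p = 0.000664). ERT1, a further activator, was at -0.37 with all arrays (adjusted p = 0.0125) and at -0.19 without the 2 doubted arrays (adjusted p = 0.218). Of 13 activator genes, 5 were lower and 0 higher, with a median of -0.084. Without the 2 doubted arrays 3 were lower, with a median of -0.001.

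Within the kinase complex, SNF1 itself read 12.13, 12.41 and 12.39 with SIP1 alone, against 12.76, 12.79 and 12.64 with GAL83 alone. Its difference of -0.42 ± 0.069 was called (adjusted p = 0.000403), and it was -0.37 without the 2 doubted arrays. SNF4 differed by -0.10 (interval -0.29 to 0.083, adjusted p = 0.399). Apart from the deleted genes, SNF1 was thus the member of the complex whose level was called.

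Of 9 genes for upstream kinases and the Glc7 phosphatase, 3 were lower, all named here. REG2, a regulatory subunit of Glc7, read 9.79, 9.71 and 9.92 with SIP1 alone, against 11.51, 11.45 and 11.01 with GAL83 alone (difference -1.52 ± 0.18, adjusted p = 2.61e-05). The calls of SAK1, the main kinase upstream of Snf1, and of STD1, which interacts with Snf1, were lost without the 2 doubted arrays, at -0.31 (adjusted p = 0.0746) and -0.68 (adjusted p = 0.0834). The median of this list was -0.043 as deposited, and median centring and quantile normalization turned its sign.

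Repressors of glucose-repressed genes moved both ways, with 2 of 9 higher and 4 lower. MIG3, a relative of MIG1, read 2.38 in each SIP1-alone array, the lower end of its scale, against 4.82, 4.40 and 3.57 in the GAL83-alone arrays (difference -1.88 ± 0.18, adjusted p = 3.86e-06). NRG2, a repressor that binds Snf1, read 13.72, 13.32 and 13.14 with SIP1 alone, against 12.89, 12.87 and 12.95 with GAL83 alone (difference 0.49 ± 0.12, adjusted p = 0.00614). HXK2, the hexokinase that also takes part in repression, read 13.70, 13.95 and 13.85 with SIP1 alone, against 13.41, 13.41 and 13.65 with GAL83 alone (difference 0.34 ± 0.089, adjusted p = 0.00841). TUP1, the general corepressor, was at -0.53 with all arrays and at -0.20 without the 2 doubted arrays, called both times (adjusted p = 0.0162 and 0.00511). MIG1, the repressor that Snf1 phosphorylates, was at -0.32 (adjusted p = 0.0296) and at -0.23 without the 2 doubted arrays (adjusted p = 0.0799). Without those arrays 2 of the list were higher and 2 lower.

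Sugar uptake genes were mixed. HXT4, a transporter induced at low glucose, read 10.24, 10.40 and 10.15 with SIP1 alone, against 11.55, 11.60 and 11.96 with GAL83 alone (difference -1.44 ± 0.17, adjusted p = 2.6e-05). The strains were well apart in every array. HXT3 differed by -0.78 (adjusted p = 0.00318), or -0.60 without the 2 doubted arrays (adjusted p = 0.0521). HXT9 differed by -0.78 (adjusted p = 0.0174), a call lost without GAL83-alone replicate 3 (adjusted p = 0.0746) and under quantile normalization (adjusted p = 0.276). HXT10 differed by 1.27 (adjusted p = 0.0122) between low values of 4.40, 4.19 and 5.55 with SIP1 alone, against 3.42, 3.43 and 3.49 with GAL83 alone. Without replicate 3 of the SIP1-alone strain its call was lost (adjusted p = 0.056). The transporter genes HXT2 (0.077, interval -0.096 to 0.25) and HXT5 (-0.16, interval -0.35 to 0.039) were not called. Of 17 transporter and sensor genes, 2 were higher and 3 lower, with a median of 0.004, where 9.91% of all genes were higher and 20.6% lower.

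Genes for other sugars were few and mixed. IMA5, an isomaltase, read 8.10, 7.65 and 8.38 with SIP1 alone, against 9.63, 10.11 and 10.06 with GAL83 alone (difference -1.89 ± 0.27, adjusted p = 0.000128). With values raised to the level of the lowest 25% of genes, 9.746, its call was lost (adjusted p = 0.206). SUC2, the invertase gene and a classical Snf1 target, read 13.35, 13.68 and 13.70 with SIP1 alone, against 13.04, 13.06 and 13.57 with GAL83 alone. It was not called with all arrays (0.35 ± 0.15, adjusted p = 0.0862) and was called higher without the 2 doubted arrays (0.64, adjusted p = 0.00715). The GAL83-alone array that holds SIP2 signal was the one with high SUC2. MAL31, a maltose permease gene, differed by 0.093 (interval -0.16 to 0.35). Of 10 genes for sucrose, maltose and isomaltose, 1 was higher and 3 lower. The other called members were MPH2, a maltose permease gene with a shared probe set, at -1.73 (adjusted p = 0.000403), and MAL13 and IMA1, at -0.81 and 0.68, whose calls were lost without the 2 doubted arrays (adjusted p = 0.2 and 0.0969). The galactose list of 8 genes includes GAL11, a subunit of the transcription complex Mediator. Of these 8, 5 were lower and 0 higher (4 without the 2 doubted arrays), with a median of -0.30. Among them GAL3, the galactose sensor, was at -1.08 ± 0.25 (adjusted p = 0.00481, or 0.145 with values raised to the level of the lowest 25% of genes) and PGM2, the main phosphoglucomutase, at -0.31 ± 0.085 (adjusted p = 0.0116). GAL1 was at -0.47 (adjusted p = 0.0109), with its call lost without the 2 doubted arrays (adjusted p = 0.0508) and its sign turned by quantile normalization, at 0.049.

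Of 4 hexose phosphorylation genes, HXK2 was higher and GLK1, glucokinase, lower by a small amount (-0.18, adjusted p = 0.00308, and 0.0548 without the 2 doubted arrays). HXK1 was not called with all arrays (0.10, adjusted p = 0.16) and was at 0.20 without the 2 doubted arrays (adjusted p = 0.0133). In glycolysis 7 of 22 genes were lower and 0 higher, with a median of -0.052. PDC6, a minor pyruvate decarboxylase, read 10.97, 11.25 and 11.44 with SIP1 alone, against 12.58, 12.48 and 12.19 with GAL83 alone (difference -1.20 ± 0.22, adjusted p = 0.000987). Of 11 pentose phosphate genes, 2 were higher and 4 lower. The lactonase SOL4 read 12.39, 12.37 and 12.27 with SIP1 alone, against 13.25, 13.37 and 13.22 with GAL83 alone (difference -0.94 ± 0.089, adjusted p = 3.86e-06). The ribose phosphate isomerase gene RKI1 differed by -0.83 ± 0.099 (adjusted p = 2.78e-05). Of 13 alcohol and acetaldehyde dehydrogenase genes, 1 was higher and 2 lower, and without the 2 doubted arrays 1 was higher and 0 lower.

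The tricarboxylic acid cycle burns acetyl-CoA, and 14 of its 20 measured genes were lower with SIP1 alone, with 0 higher and a median of -0.16. KGD1, of the ketoglutarate dehydrogenase complex, read 12.79, 13.37 and 13.30 with SIP1 alone, against 13.79, 13.87 and 13.79 with GAL83 alone (difference -0.66 ± 0.11, adjusted p = 0.000413). SDH1, of succinate dehydrogenase, was at -0.44 ± 0.073 (adjusted p = 0.000413), KGD2 at -0.41 ± 0.069 (adjusted p = 0.000469) and FUM1, fumarase, at -0.31 ± 0.043 (adjusted p = 0.00011). Median centring left 8 of the 20 lower, and without the 2 doubted arrays 9 were lower and 1 higher. Of 37 respiratory chain and ATP synthase genes, 3 were higher and 5 lower, a share below that of all genes, with a median of -0.032 that median centring turned to 0.014. COX5B, the subunit of cytochrome oxidase made at low oxygen, read 8.0, 6.30 and 6.11 with SIP1 alone, against 5.94, 5.52 and 5.96 with GAL83 alone. Its difference was 1.00 with all arrays (adjusted p = 0.022) and 0.47 without the 2 doubted arrays (adjusted p = 0.0244), and its call was lost without GAL83-alone replicate 2 (adjusted p = 0.0821). Of 68 mitochondrial ribosomal protein genes, 15 were lower and 1 higher, where 20.6% of all genes were lower, and quantile normalization gave 10 lower and 8 higher. Their median was -0.023, which turned to 0.023 after median centring and to 0.034 after quantile normalization, and was -0.12 without the 2 doubted arrays.

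Storage carbohydrate genes that were called were lower, except 1 glycogen gene that was higher under quantile normalization. Of 7 trehalose genes, 5 were lower and 0 higher both with and without the 2 doubted arrays, with a median of -0.40. ATH1, the acid trehalase, was at -0.43 ± 0.086 (adjusted p = 0.00171), TPS2 at -0.43 ± 0.077 (adjusted p = 0.000878), NTH1, the neutral trehalase, at -0.42 ± 0.097 (adjusted p = 0.00417) and TPS1, trehalose phosphate synthase, at -0.40 ± 0.063 (adjusted p = 0.00032). Genes for making and for breaking down trehalose thus fell side by side. Of 17 glycogen genes, 8 were lower and 0 higher, with a median of -0.29, and 6 were lower without the 2 doubted arrays. The debranching enzyme gene GDB1 was at -0.57 ± 0.11 (adjusted p = 0.00094). GAC1, the Glc7 subunit for glycogen synthase, read 5.88, 9.38 and 9.12 with SIP1 alone, against 9.84, 10.04 and 10.30 with GAL83 alone. Its difference of -1.94 (adjusted p = 0.0176) was -0.69 without the 2 doubted arrays (adjusted p = 0.0529).

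Of 31 stress genes under Msn2 and Msn4, 8 were lower and 0 higher, with a median of -0.098, where 20.6% of all genes were lower. Without the 2 doubted arrays 10 were lower and 1 higher. CTT1, cytosolic catalase, read 10.53, 10.46 and 10.66 with SIP1 alone, against 11.93, 12.23 and 11.76 with GAL83 alone (difference -1.43 ± 0.19, adjusted p = 8.07e-05). GRE1 was at -0.52 ± 0.13 (adjusted p = 0.00655). HSP12, a membrane stress protein, stood at the top of the scale in both strains and differed by -0.022 (interval -0.14 to 0.092).

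**Figure D3:**
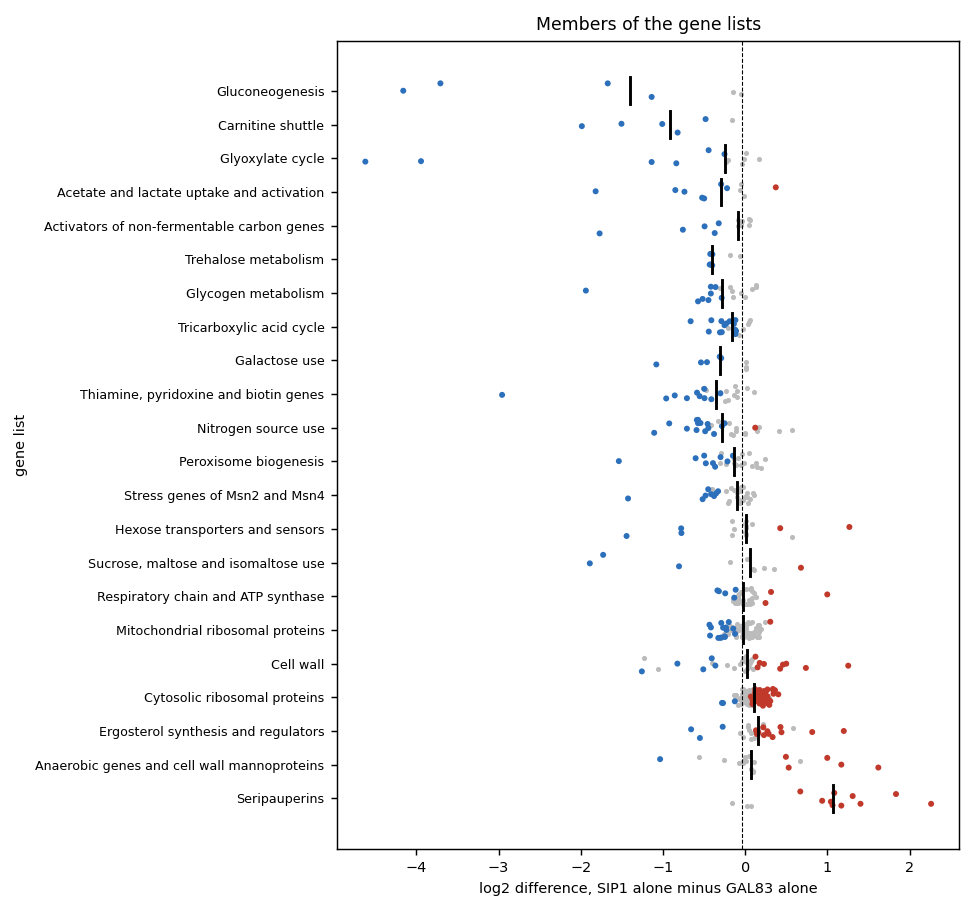
Log2 difference (SIP1 alone minus GAL83 alone, x axis) of every measured member of 22 gene lists (y axis). Red and blue points are members called higher and lower, grey points members not called, black bars list medians, and the dashed line the median of all genes, -0.035. List medians run from -1.41 in gluconeogenesis to 1.06 in seripauperins.

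In the other direction, the seripauperins had the highest median of the 44 lists. These are small cell surface proteins of a large subtelomeric family, induced by low oxygen and low temperature. Of 13 measured members 10 were higher and 0 lower, with a median of 1.06, and 9 were higher without the 2 doubted arrays, with a median of 1.27. PAU5, the one named here with a probe set of its own, read 13.66, 13.49 and 13.65 with SIP1 alone, against 12.44, 11.91 and 12.25 with GAL83 alone (difference 1.40 ± 0.14, adjusted p = 5.02e-06). PAU18 read 9.24, 10.24 and 9.73 with SIP1 alone, against 7.45, 7.06 and 7.92 with GAL83 alone (difference 2.26 ± 0.37, adjusted p = 0.000403). With values raised to the level of the lowest 25% of genes, the call of PAU18 was lost (adjusted p = 0.279). PAU9 was at 1.31 ± 0.14 (adjusted p = 1.26e-05), PAU7 at 1.08 ± 0.12 (adjusted p = 1.74e-05), PAU24 at 1.17 ± 0.21 (adjusted p = 0.000735) and PAU2 at 1.06 ± 0.13 (adjusted p = 3.04e-05). The probe sets of PAU2, PAU4, PAU7, PAU9, PAU18 and PAU24 also match near-identical family members, and their signal cannot be assigned to one gene.

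Other genes known from low oxygen were called in both directions. DAN1, a cell wall mannoprotein of anaerobic cells, read 7.87, 8.97 and 8.68 with SIP1 alone, against 6.83, 6.51 and 7.32 with GAL83 alone (difference 1.62 ± 0.27, adjusted p = 0.00043). ROX1, the repressor of hypoxic genes, read 9.27, 10.14 and 9.96 with SIP1 alone, against 10.86, 10.94 and 10.68 with GAL83 alone (difference -1.04 ± 0.21, adjusted p = 0.0021). Of 19 anaerobic and mannoprotein genes 5 were higher and 1, ROX1, was lower. This list shares PAU23 and PAU24 with the seripauperins, and PAU24 is among the 5. Without the 2 doubted arrays 7 were higher and 1 lower.

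Sterol genes that were called were mostly higher with SIP1 alone. UPC2, the activator of sterol synthesis and of anaerobic sterol uptake, read 11.33, 11.31 and 11.39 with SIP1 alone, against 10.81, 10.05 and 10.73 with GAL83 alone (difference 0.82 ± 0.17, adjusted p = 0.00222). HES1, an oxysterol-binding protein homologue, read 12.73, 12.61 and 12.25 with SIP1 alone, against 11.11, 11.18 and 11.71 with GAL83 alone (difference 1.20 ± 0.27, adjusted p = 0.00332). ECM22, the other sterol regulator, was at -0.66 ± 0.15 (adjusted p = 0.0039) and HMG2, a form of HMG-CoA reductase, at -0.55 ± 0.11 (adjusted p = 0.00172). The paralogous regulators UPC2 and ECM22 therefore differed in opposite directions. Of 29 ergosterol genes and regulators, 12 were higher, 3 lower and 14 not called, where 9.91% of all genes were higher and 20.6% lower. The median was 0.15, and 17 were higher and 2 lower without the 2 doubted arrays.

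**Figure D4:**
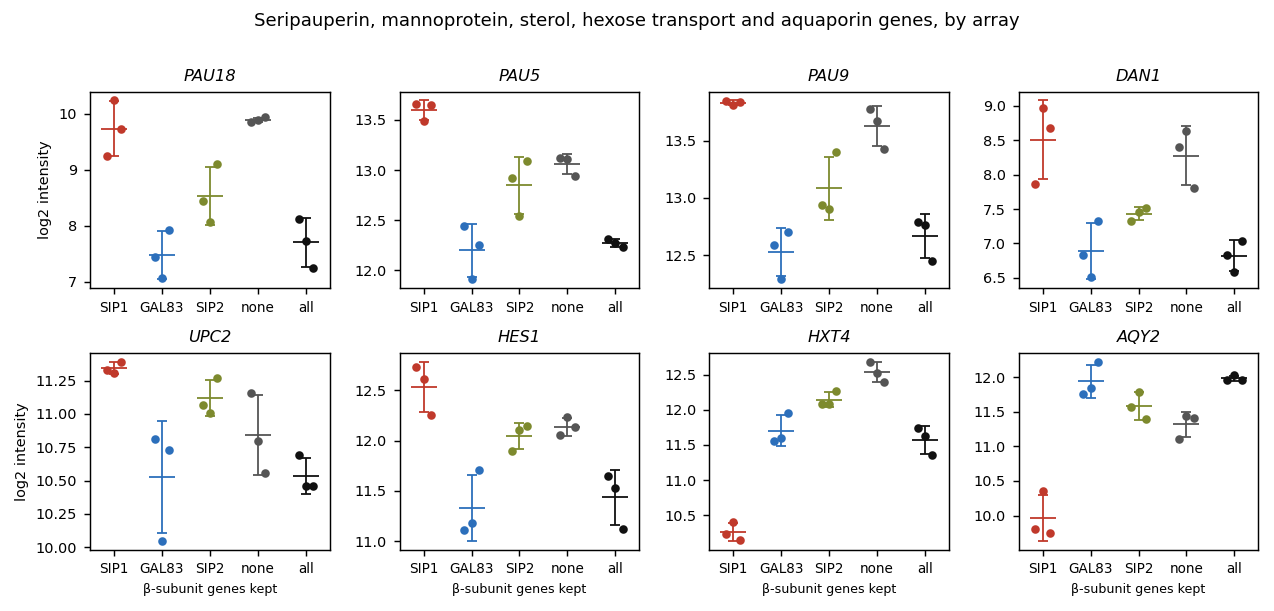
Log2 intensity (y axis) of 8 genes in each array of 5 strains (x axis, by the β-subunit genes kept; none is the triple deletion and all is the reference). Points are arrays, and bars are the strain mean ± SD. PAU5, PAU9, DAN1, UPC2 and HES1 are higher with SIP1 alone than with GAL83 alone in every array, and HXT4 and AQY2 are lower with SIP1 alone than in every array of the other 4 strains shown.

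Other lipid genes were called in both directions. Of 14 fatty acid synthesis genes 3 were higher and 3 lower, and without the 2 doubted arrays 0 were higher and 2 lower. ACC1, the acetyl-CoA carboxylase that Snf1 inhibits as a protein, was at -0.20 (adjusted p = 0.0253), or -0.18 without the 2 doubted arrays (adjusted p = 0.0992). OLE1, the fatty acid desaturase, was at 0.11 (adjusted p = 0.03), or 0.099 without them (adjusted p = 0.122), and FAS1, a fatty acid synthase subunit, at -0.034 (interval -0.098 to 0.031). Of 23 inositol and phospholipid genes 5 were higher and 4 lower, or 2 and 0 without the 2 doubted arrays. PIS1, phosphatidylinositol synthase, read 12.76, 12.31 and 12.34 with SIP1 alone, against 11.63, 11.65 and 11.97 with GAL83 alone (difference 0.72 ± 0.14, adjusted p = 0.00118). INO1, the first step of inositol synthesis, was at 0.19 (interval -0.05 to 0.43, adjusted p = 0.217), and OPI3, of phosphatidylcholine synthesis, at -0.10 (interval -0.19 to -0.018, adjusted p = 0.0634). INO2, the activator of both, read 7.25, 8.96 and 8.42 with SIP1 alone, against 9.62, 9.42 and 9.38 with GAL83 alone. It was at -1.26 (adjusted p = 0.00842), and at -0.83 without the 2 doubted arrays (adjusted p = 0.0603).

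Peroxisomes break down fatty acids in yeast. PEX18, needed to import thiolase into them, read 7.21, 6.87 and 7.11 with SIP1 alone, against 8.81, 8.91 and 8.08 with GAL83 alone (difference -1.54 ± 0.28, adjusted p = 0.000971). POT1, that thiolase, read 12.17, 12.29 and 12.55 with SIP1 alone, against 13.16, 13.21 and 12.99 with GAL83 alone (difference -0.78 ± 0.14, adjusted p = 0.000808). Importer and cargo genes were thus both lower, with no overlap between strains. PEX4 was at -0.50 ± 0.092 (adjusted p = 0.00102) and PEX8 at -0.48 ± 0.082 (adjusted p = 0.000563). Of 25 peroxisome biogenesis genes 9 were lower and 0 higher, with a median of -0.14, and 10 were lower without the 2 doubted arrays. Of 16 β-oxidation genes 3 were lower and 2 higher. The higher ones, PXA1 and PXA2, encode the transporter that brings fatty acids in, and both calls were lost without the 2 doubted arrays (adjusted p = 0.653 and 0.188).

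Cell wall genes included 9 higher and 5 lower of 34, or 13 higher and 1 lower without the 2 doubted arrays. YPS3, a cell surface protease of the yapsin family, read 11.28, 11.99 and 11.60 with SIP1 alone, against 10.09, 10.10 and 10.92 with GAL83 alone (difference 1.25 ± 0.22, adjusted p = 0.000606). UTR2, which links chitin to glucan, was at 0.74 ± 0.15 (adjusted p = 0.00202). FLO10, a flocculin gene, was at -1.26 ± 0.23 (adjusted p = 0.000891), and at -0.82 without the 2 doubted arrays (adjusted p = 0.00397). The call of FLO9, whose probe set is shared, was lost without them (adjusted p = 0.0675).

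Vitamin genes were lower or not called. Of 22 genes for thiamine, pyridoxine and biotin, 10 were lower and 0 higher, with a median of -0.36, and 8 were lower without the 2 doubted arrays. BIO3, of biotin synthesis, read 9.63, 9.64 and 9.59 with SIP1 alone, against 10.74, 10.37 and 10.31 with GAL83 alone (difference -0.86 ± 0.17, adjusted p = 0.00182). BIO5, which takes up a biotin precursor, read 4.59, 5.39 and 7.30 with SIP1 alone, against 9.16, 8.50 and 8.50 with GAL83 alone (difference -2.96 ± 0.60, adjusted p = 0.00188). Its SIP1-alone arrays were widely spread but all lay under those of GAL83 alone.

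Of 29 genes for using nitrogen sources, 14 were lower and 1 higher, with a median of -0.28, and 8 were lower and 1 higher without the 2 doubted arrays. DAL2, of allantoin breakdown, read 8.97, 8.95 and 9.39 with SIP1 alone, against 10.03, 10.45 and 10.15 with GAL83 alone (difference -1.11 ± 0.18, adjusted p = 0.000403). The proline permease gene PUT4 was at -0.92 ± 0.17 (adjusted p = 0.0011). The ammonium permease genes MEP2 and MEP1 were at -0.71 ± 0.14 (adjusted p = 0.00154) and -0.59 ± 0.083 (adjusted p = 0.000118).

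Few genes of amino acid synthesis differed by much. Of 26 genes for leucine, isoleucine and aromatic amino acids, 9 were lower and 1 higher, or 4 and 1 without the 2 doubted arrays. The higher one was TYR1, prephenate dehydrogenase of tyrosine synthesis, which read 12.00, 11.76 and 11.71 with SIP1 alone, against 11.31, 11.22 and 11.35 with GAL83 alone (difference 0.53 ± 0.075, adjusted p = 0.000128). Of 22 arginine, lysine and histidine genes 1 was lower and 0 higher, a share well below the 30.5% of all genes. Sulfate and methionine genes counted 10 lower and 2 higher of 30, or 4 and 1 without the 2 doubted arrays. MET22, a phosphatase of sulfate assimilation, was at 0.40 ± 0.079 (adjusted p = 0.00163), and CBF1, a regulator of this pathway, at -0.61 ± 0.12 (adjusted p = 0.00157). The call of MET13 was lost without the 2 doubted arrays (adjusted p = 0.163). Of 18 purine genes 4 were lower and 0 higher, where 20.6% of all genes were lower, or 3 and 0 without those arrays. Among the lower genes was ADE6 at -0.47 ± 0.093 (adjusted p = 0.00148).

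For metals and phosphate most calls did not hold. In the iron regulon 4 of 32 genes were lower with all arrays and 1 without the 2 doubted arrays. The one that held was COT1, a vacuolar metal transporter, which read 11.95, 11.95 and 12.00 with SIP1 alone, against 12.50, 12.57 and 12.51 with GAL83 alone (difference -0.56 ± 0.13, adjusted p = 0.00372). The call of FRE4, a ferric reductase gene at -3.26, was lost without the 2 doubted arrays (adjusted p = 0.0634). Phosphate genes counted 5 lower of 23, where 20.6% of all genes were lower, and 1 without the 2 doubted arrays. PHO8, the vacuolar alkaline phosphatase, was at -0.48 ± 0.075 (adjusted p = 0.000278).

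Autophagy genes counted 10 lower and 2 higher of 31, or 9 lower and 0 higher without the 2 doubted arrays. ATG36, the receptor that marks peroxisomes for degradation, read 10.58, 10.88 and 10.84 with SIP1 alone, against 11.63, 11.56 and 11.40 with GAL83 alone (difference -0.76 ± 0.10, adjusted p = 6.19e-05). ATG15, the vacuolar lipase, read 4.80, 8.22 and 7.55 with SIP1 alone, against 9.38, 9.67 and 9.55 with GAL83 alone. Replicate 1 lay far under the other arrays, and without the 2 doubted arrays its difference was -1.64 in place of -2.68 (adjusted p = 0.109 and 0.0114).

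Of 39 meiosis and sporulation genes 7 were lower and 1 higher, where 20.6% of all genes were lower and 9.91% higher. IME1, the master regulator of entry into meiosis, read 7.07, 7.52 and 7.51 with SIP1 alone, against 8.76, 8.60 and 8.35 with GAL83 alone (difference -1.21 ± 0.19, adjusted p = 0.000276). RIM9, of the Rim101 pathway, read 3.14, 5.91 and 5.29 with SIP1 alone, against 7.51, 7.16 and 7.57 with GAL83 alone (difference -2.63 ± 0.58, adjusted p = 0.00312), and was at -1.73 without the 2 doubted arrays (adjusted p = 0.036). The higher gene, REC104 of meiotic recombination, was at 1.51 with all arrays (adjusted p = 0.0039) and 1.04 without the 2 doubted arrays (adjusted p = 0.0465), and its call was lost under array weights (adjusted p = 0.0943). Of 22 mating genes 6 were lower with all arrays and 1 without the 2 doubted arrays. The one that held was AGA2, an agglutinin subunit, at -2.47 ± 0.52 (adjusted p = 0.00254).

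The list of 128 cytosolic ribosomal protein genes also holds RPP1, which encodes a subunit of RNase P. Of the 128, 46 were higher and 3 lower, with a median of 0.10, and median centring gave 69 higher and 0 lower. Without the 2 doubted arrays 21 were higher and 0 lower. RPL11A read 14.40, 14.22 and 14.24 with SIP1 alone, against 13.82, 14.09 and 13.74 with GAL83 alone (difference 0.40 ± 0.083, adjusted p = 0.00215), and its call was lost when SIP2-alone replicate 2 was left out along with the 2 doubted arrays (adjusted p = 0.0535). Replicate 1 of the SIP1-alone strain was the highest of its strain for RPL11A, RPS1B and RPL40B. The calls of RPS1B and RPL40B were lost without the 2 doubted arrays (adjusted p = 0.108 and 0.219). Of 76 ribosome biogenesis genes 6 were higher and 5 lower, or 0 and 2 without the 2 doubted arrays, and of 33 proteasome genes 5 were higher and 3 lower, or 2 and 3. Of 23 aryl-alcohol dehydrogenase, glutathione transferase and old yellow enzyme genes 2 were higher and 5 lower. GTO3, a glutathione transferase, read 2.13 in each SIP1-alone array, the lower end, against 4.20, 4.10 and 3.92 in the GAL83-alone arrays (difference -1.94 ± 0.17, adjusted p = 2.01e-06).

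Several of the largest differences belonged to genes of no list. AQY2, a water channel, read 9.81, 10.35 and 9.75 with SIP1 alone, against 11.76, 11.85 and 12.22 with GAL83 alone (difference -1.97 ± 0.17, adjusted p = 2.01e-06). FMP48 read 8.61, 8.54 and 8.31 with SIP1 alone, against 10.40, 10.65 and 10.10 with GAL83 alone (difference -1.90 ± 0.24, adjusted p = 5.66e-05). The cysteine transporter gene YCT1 was at -1.70 ± 0.26 (adjusted p = 0.000276). FAT3, which takes part in fatty acid uptake, read 11.07, 11.67 and 11.83 with SIP1 alone, against 13.28, 13.25 and 12.74 with GAL83 alone (difference -1.57 ± 0.23, adjusted p = 0.000187). Among higher genes, PTR2, the peptide transporter, read 9.52, 10.88 and 10.89 with SIP1 alone, against 8.92, 8.56 and 8.65 with GAL83 alone (difference 1.72 ± 0.33, adjusted p = 0.00136). SFG1, a regulator of filamentous growth, read 10.24, 10.99 and 10.87 with SIP1 alone, against 8.55, 8.98 and 9.53 with GAL83 alone (difference 1.68 ± 0.25, adjusted p = 0.000174). For both genes replicate 1 was the lowest SIP1-alone array, and without the 2 doubted arrays the differences were 2.15 and 2.17. DIA1, a gene of invasive growth, read 11.25, 10.84 and 10.66 with SIP1 alone, against 9.14, 9.38 and 9.86 with GAL83 alone (difference 1.46 ± 0.17, adjusted p = 1.93e-05). YSR3, a sphingoid base phosphatase, was at 1.54 ± 0.28 (adjusted p = 0.000898). ATF2, which acetylates alcohols and sterols, read 11.75, 11.96 and 11.88 with SIP1 alone, against 9.83, 10.24 and 11.36 with GAL83 alone (difference 1.39 ± 0.35, adjusted p = 0.00727). GAL83-alone replicate 3, the array with SIP2 signal, was the highest of its strain for ATF2, SFG1, DIA1 and YSR3, and without the 2 doubted arrays ATF2 was at 1.89 and YSR3 at 1.92. The nuclease gene REX3 was at 1.08 ± 0.14 (adjusted p = 5.66e-05), SSK22, a kinase of the osmotic pathway, at 1.03 ± 0.15 (adjusted p = 0.00016) and FHN1, of the plasma membrane, at 0.86 ± 0.14 (adjusted p = 0.000426).

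**Figure D5:**
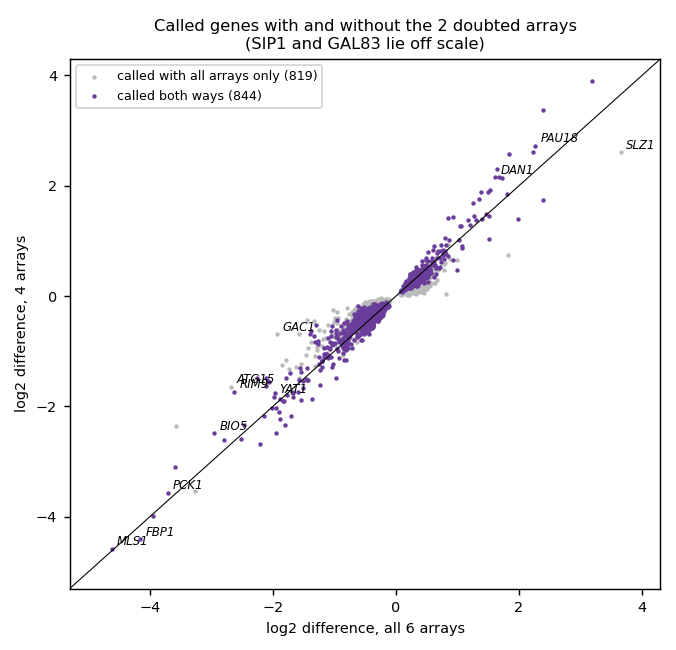
Log2 difference of the 1663 called genes with all 6 arrays (x axis) and without SIP1-alone replicate 1 and GAL83-alone replicate 3 (y axis). Purple points are the 844 genes called both ways, grey points the rest, and the line marks equal values. MLS1, FBP1 and PCK1 lie near the line, while ATG15 and GAC1 lie off it, at -1.64 and -0.69 without those arrays.

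The strain with SIP2 alone was used to ask whether the SIP1-alone strain differs from the other strain that has lost GAL83. This comparison, of the same 3 SIP1-alone arrays, called 683 genes (12.5%), 150 higher (2.75%) and 533 lower (9.78%). The count depended on which single array was left out. SIP2-alone replicate 2 read 9.72 for GAL83, which its label says is deleted, where the other arrays of its strain read 2.07, and the count was 235 without it. Without SIP2-alone replicate 1 or 3 the count was 189 or 653. Without SIP1-alone replicate 1 it fell to 335, and without SIP1-alone replicate 2 or 3 it rose to 1209 or 1076. Without the 3 doubted arrays it was 183, 43 higher and 140 lower. Values in this paragraph and the next are without the 3 doubted arrays unless said otherwise. MLS1 read 8.41, 8.19 and 9.32 with SIP1 alone, against 9.24, 12.27 and 9.04 with SIP2 alone. The middle SIP2-alone value is that of the doubted array, and without the doubted arrays the difference was -0.38 (adjusted p = 0.529), against -1.54 with all arrays (adjusted p = 0.0695). FBP1 was at -0.61 (adjusted p = 0.153), ICL1 at -0.28 (adjusted p = 0.295) and MDH2 at 0.22 (adjusted p = 0.0768). PCK1 was called with all arrays (-1.34, adjusted p = 0.034) but not without the doubted ones (-0.36, adjusted p = 0.121).

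Some genes of carbon use did differ between SIP1 alone and SIP2 alone. YAT1 was at -0.43 (adjusted p = 0.00648), YAT2 at -0.48 (adjusted p = 0.000849) and SFC1 at -0.37 (adjusted p = 0.0346), all lower with SIP1 alone. ADY2 read 11.92, 12.26 and 11.74 with SIP1 alone, against 10.73, 12.90 and 10.77 with SIP2 alone. It was higher with SIP1 alone without the doubted arrays (1.25, adjusted p = 0.00879) and not called with all arrays (0.51, adjusted p = 0.388). HXT4 read 10.24, 10.40 and 10.15 with SIP1 alone, against 12.08, 12.08 and 12.27 with SIP2 alone (-1.90, adjusted p = 0.000179). AQY2 was at -1.43 (adjusted p = 0.00128) and DAL2 at -1.15 (adjusted p = 0.0176). Higher with SIP1 alone were INO1 at 0.78 (adjusted p = 0.00568), ECI1, an isomerase of β-oxidation, at 0.84 (adjusted p = 0.00433) and PAU7 at 0.60 (adjusted p = 0.0285). SIP4 and CAT8 were not called, at 0.32 (adjusted p = 0.517) and -0.067 (adjusted p = 0.517). SUC2 was at -0.37 (adjusted p = 0.168). Beyond carbon use, 21 of 68 mitochondrial ribosomal protein genes were lower and 0 higher, with a median of -0.22. Over all 5449 genes 140 were lower and 43 higher. With all arrays 22 of the 68 were lower and 0 higher, and 13 were lower and 1 higher after median centring.

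Against the strain with no β-subunit gene, the SIP1-alone strain was used to ask which genes differ when SIP1 is kept. The comparison called 789 genes (14.5%), 269 higher (4.94%) and 520 lower (9.54%). Without the 2 doubted arrays it called 808, 285 higher and 523 lower, and without all 3 it called 786, 280 higher and 506 lower. MLS1 read 8.41, 8.19 and 9.32 with SIP1 alone, against 7.16, 6.55 and 6.89 with no β-subunit. Every SIP1-alone array was above every array of the triple deletion, with a difference of 1.78 ± 0.55 (adjusted p = 0.0387). It missed the threshold without the 2 doubted arrays (1.89, adjusted p = 0.0632) and passed it without all 3 doubted arrays (adjusted p = 0.000339). The further doubted array, SIP2-alone replicate 2, belongs to neither strain compared here. Leaving it out changes only the spread that the strains share, not the difference. Of the 12 glyoxylate cycle genes, 3 were higher and 1 lower in this comparison, 2 higher and 1 lower without the 2 doubted arrays, and 5 higher and 1 lower without all 3. ICL1 read 9.33, 9.40 and 9.79 with SIP1 alone, against 8.36, 8.52 and 8.22 with no β-subunit, and was not called with all arrays (1.14, adjusted p = 0.101), but was called without all 3 doubted arrays (1.23, adjusted p = 2e-05). With all arrays, FBP1 (-0.49, interval -1.47 to 0.48, adjusted p = 0.524) and PCK1 (-0.53, interval -1.34 to 0.28, adjusted p = 0.385) were not called. Their intervals cover small rises as well as falls. The spread behind these intervals includes SIP2-alone replicate 2, so they do not show what leaving it out gives for the 2 genes. Calls in this list also moved with the setting. Of 6 gluconeogenesis genes, 0 were higher and 1 lower with all arrays, and 1 higher and 2 lower without all 3 doubted arrays. YAT2 read 11.35, 11.47 and 11.55 with SIP1 alone, against 10.57, 10.54 and 10.45 with no β-subunit (difference 0.94 ± 0.099, adjusted p = 4.38e-06). IDP2 was at 0.51 ± 0.11 (adjusted p = 0.0048), ADH2 at 0.25 ± 0.042 (adjusted p = 0.000673) and MAL31 at 0.45 ± 0.12 (adjusted p = 0.0187).

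Other genes were also higher with SIP1 alone than with no β-subunit. IMA5 read 8.10, 7.65 and 8.38 with SIP1 alone, against 5.47, 5.46 and 5.14 with no β-subunit (difference 2.69 ± 0.27, adjusted p = 2.04e-06). FAT3 was at 1.48 ± 0.23 (adjusted p = 0.000335), CRF1, a corepressor of ribosomal protein genes, at 1.53 ± 0.21 (adjusted p = 8.05e-05) and SPS100, a spore wall protein, at 1.86 ± 0.25 (adjusted p = 6.82e-05). Of 31 stress genes under Msn2 and Msn4, 10 were higher and 2 lower in this comparison, with a median of 0.16, beside -0.014 over all genes, and 8 were higher and 0 lower without the 2 doubted arrays.

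Of 39 meiosis and sporulation genes, 14 were lower with SIP1 alone than with no β-subunit, 0 were higher and 25 were not called, and 13 were lower without the 2 doubted arrays. Their median difference was -0.11, and 0.004 after quantile normalization. IME2, the kinase that drives meiosis, read 6.46, 7.03 and 5.38 with SIP1 alone, against 10.56, 10.11 and 9.60 with no β-subunit (difference -3.80 ± 0.34, adjusted p = 4.44e-07). DMC1, the meiotic recombinase, was at -2.62 ± 0.27 (adjusted p = 2.47e-06). SLZ1 read 7.69, 7.11 and 1.95 with SIP1 alone, against 11.25, 11.17 and 10.49 with no β-subunit (difference -5.38 ± 0.89, adjusted p = 0.000498), so its SIP1-alone arrays disagreed by several units. UGA4, a permease for γ-aminobutyrate, was at -2.90 ± 0.34 (adjusted p = 1.4e-05). These genes were not called between SIP1 alone and GAL83 alone, except SLZ1, which was at 3.66 with all arrays (adjusted p = 0.00583) and lost its call without the 2 doubted arrays (adjusted p = 0.0631). Its GAL83-alone arrays averaged 1.93, near the lower end of the scale, so the size of that difference depends on that end.

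Some genes were lower with SIP1 alone than with either GAL83 alone or no β-subunit. SIP4 read 8.59, 9.49 and 8.62 with SIP1 alone, against 10.70, 10.44 and 10.10 with no β-subunit (difference -1.51 ± 0.28, adjusted p = 0.00142). HXT4 was at -2.28 ± 0.17 (adjusted p = 5.16e-08) and AQY2 at -1.35 ± 0.17 (adjusted p = 3.28e-05). Both comparisons use the same SIP1-alone arrays, so a low value in those arrays enters each of them. INO1 was also lower than with no β-subunit, at -0.43 ± 0.12 (adjusted p = 0.016). Of the higher genes, PAU5 was at 0.54 ± 0.14 (adjusted p = 0.0135) and PAU7 at 0.62 ± 0.12 (adjusted p = 0.00225), while DAN1 and the other genes of the anaerobic list counted 1 higher and 2 lower of 19. Mitochondrial ribosomal protein genes counted 17 lower and 1 higher of 68, where 9.54% of all genes were lower. Without the 2 doubted arrays 26 of them were lower and 0 higher, where 523 of 5449 genes were lower.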

How the data were processed

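Per the submitters' processing notes, the authors deposited log2 values made by RMA in the affy package, with no versions given. Of 5716 probe sets, 5498 name 1 gene and 218 none. Each of the 5498 was found in a RefSeq gene table (assembly R64), which served for names only and updated 12 symbols. The probe set with the highest mean was kept per gene, which left out 49 and left 5449 genes, 112 of them with a shared probe set. No low values were filtered, and coordinates were not used here. The 8 strains come from the sample titles. One limma 3.58.1 model (R 4.3.3) with 8 strain means and two-sided tests used the 24 arrays together, so that strains share the spread. No 2 arrays were identical, and the array number limits the precision. Replicates are separate cultures per the labels.

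The comparison, the 44 gene lists and the named genes were chosen with earlier results of these data known. Named genes are the deleted genes, up to 15 called each way with strains not overlapping and a strain mean of at least 9.746, up to 4 called members per list, a fixed panel, and up to 5 each way in the other comparisons. The text gives only part of the list members this allows. Alternatives were median centring, quantile normalization, leaving out or raising the lowest 25% of genes, all probe sets, a trended and robust eBayes, array weights, a replicate block, the compared strains alone, a minimum difference of 1, and leaving out arrays. In simulated data on 5449 genes, the main comparison recovered 80% of differences of 0.5 and 98% of differences of 1, with 12 false calls among 201. The simulation gave every strain the same spread per gene and held no deviating array. Its rates therefore cannot be carried over to the calls in the real arrays.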

Additional observations from a re-analysis of the deposited data

How the results depend on the processing

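For SIP1 alone against GAL83 alone, 1663 genes were called, and 150 past a difference of 1, 210 with the 2 strains fitted alone, 1096 without the 2 doubted arrays and 1091 without all 3. Leaving out 1 array gave 1270 (without SIP1-alone replicate 1) to 1925 (without SIP1-alone replicate 2). Against SIP2 alone these were 683, 45, 4, 344 and 183, with 1372 under array weights and 189 to 1209 without 1 array. Against no β-subunit 789 were called, 96 past a difference of 1, 232 with the 2 strains alone and 2026 under array weights, and 492 (without replicate 2 of the triple deletion) to 1107 without 1 array. The cause of these shifts was not tested, except that fewer arrays leave fewer degrees of freedom.

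Of 185 named genes called between SIP1 alone and GAL83 alone, 43 kept their call under all alternatives that gave a value. With the 2 strains alone 133 lost it, without the 2 doubted arrays 62, under quantile normalization 18 and under median centring 6. Only GAL1 turned its sign, to 0.049 under quantile normalization. Where every array of both strains lay under the raised level, 9.746, no value was given. Among such genes were DAN1, PEX18, IME1, BIO5 and RIM9, whose calls this alternative therefore did not test. Deviations from the strain means correlated at 0.139, -0.161 and 0.112 between same-numbered arrays of the 2 strains. Replicates 1 and 3 correlated best with their own number, and replicate 2 did not. With 3 arrays per strain these values cannot settle whether the numbers pair the arrays. With the replicate number as a block, 1680, 674 and 799 genes were called in the 3 comparisons, and all 185 named calls held. Signal near the lower end of the scale limits MIG3, GTO3, SLZ1, FRE4 and the deleted genes.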
